A study of Mus musculus with 7 samples.

Results

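The 34 genes described here make cholesterol, sense it, take it up and move it out of cells. They are a list of symbols drawn up by known role, with earlier results of these data in view, and all 34 were found, through their Ensembl identifiers, among the 49315 rows of the deposited count table. The list holds 18 enzymes of the synthesis pathway, 2 enzymes that supply its acetyl-CoA, 5 regulators of the SREBP system, the sterol carrier Stard4, 2 LXR receptors, 3 genes known as LXR targets, and 3 genes of esterification and lysosomal export. Poly(A)-selected RNA of mouse bone marrow was sequenced in 7 libraries from mice fed chow and subjected to hindlimb ischemia, a surgical restriction of blood flow to a leg. The 3 control libraries carry the genotype miR-181a2b2flox/flox (flox; their titles call them WT), in which the miR-181a2b2 microRNA locus is floxed; the genotype of the other 4 is miR-181a2b2-/- (KO), the knockout of that locus. The sources used here do not give strain, age, sex, time after surgery, or the cells in which the deletion was made. Nor do the labels tie each library to its own animal, and every p-value below measures the spread among these libraries only, part of which may be technical.

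Cells build cholesterol from acetyl-CoA through mevalonate, squalene and lanosterol. When sterols in the endoplasmic reticulum run low, SCAP carries the transcription factors SREBP1 and SREBP2 (genes Srebf1 and Srebf2) to the Golgi for cleavage, and the freed factors switch on the synthesis genes; INSIG proteins hold SCAP back when sterols are plentiful. When oxysterols rise, the nuclear receptors LXR-alpha and LXR-beta (Nr1h3 and Nr1h2) switch on export pumps such as ABCA1 and ABCG1 and the ligase MYLIP, which lowers uptake of lipoproteins. In marrow, cholesterol supply and efflux are known to bear on the division of stem and myeloid progenitor cells.

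The deleted cluster makes 2 microRNAs whose seed, the bases that pair with target messages, is the same. Their mature forms (RefSeq, GRCm38.p6) are shown 5′ to 3′ with bases 2 to 8 in capitals, as the reference for the target sites of the list.
miR-181a-5p (Mir181a-2, chr2:38852741-38852763, plus strand): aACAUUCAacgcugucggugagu
miR-181b-5p (Mir181b-2, chr2:38853845-38853868, plus strand): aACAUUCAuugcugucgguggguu
Both hairpin genes had 0 counts in all 7 libraries. Poly(A) selection does not capture such short RNAs, so these counts check nothing about the genotype labels.

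A match to the seed, TGAATGT, was sought in the longest annotated 3′ untranslated region of each gene (GENCODE M21), and 6 of the 34 genes (17.6%) held at least 1, against 17.8% of all tested genes with such a region. A match followed by A is an 8mer, and one without it a 7mer. The 8 sites are printed 5′ to 3′ on the message strand with the match in capitals, as the places found by this search where the deleted microRNAs could pair. Shorter matches and other transcripts of each gene were not searched. Other microRNAs with the same seed were not examined, so whether pairing at these sites was lost in KO is not known.
Fdft1 (8mer, chr14:63145487-63145516, minus strand): cctcagccttcTGAATGTAcgagttatagg
Nsdhl (8mer, chrX:72957992-72958021, plus strand): caaagtattgaTGAATGTAatccccaatcc
Hsd17b7 (8mer, chr1:169949577-169949606, minus strand): tgggctcttgaTGAATGTAtgaacagttga
Hsd17b7 (7mer, chr1:169952483-169952512, minus strand): agagaaaggtgTGAATGTgtttgggccaca
Soat1 (8mer, chr1:156428156-156428185, minus strand): ttgttgatggaTGAATGTAttaaaattacc
Soat1 (7mer, chr1:156424885-156424914, minus strand): tggaggtacaaTGAATGTtctgaatgcccg
Insig2 (7mer, chr1:121305189-121305218, minus strand): ctttgtttagaTGAATGTgcttgggaatac
Npc2 (7mer, chr12:84755282-84755311, minus strand): ttattcagctgTGAATGTgagctgtaagtg
MicroRNAs are known to lower the messages they pair with. All 6 genes with a site had a log2 fold change below 0 in KO, from -0.20 for Nsdhl to -0.0015 for Insig2, with a median of -0.17. Of the 28 genes without a site 20 were also below 0, with a median of -0.09. Over all tested genes 1383 of 2542 with a site and 6394 of 11733 without were below 0, both with a median of -0.02. The count of 6 did not hold in every fit: without the control library flox 2, Hsd17b7 was at 0.06 and Nsdhl at -0.08, and Insig2, near 0, lay above 0 in 12 of 17 alternative fits. None of the 6 passed the test described next.

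Each library was measured to 43110251 to 51688514 counts, and levels are given as CPM, counts scaled to library size after TMM adjustment. KO was compared with flox by edgeR's quasi-likelihood test over all 17920 genes that passed the count filter, among them all 34 of the list, and fold changes are log2, KO minus flox, with their standard error (SE). Of the 34 genes, 0 passed at an adjusted p of 0.05, where 0.145% of all tested genes did; DESeq2 and limma-voom also called 0. At an unadjusted p under 0.05, edgeR gave 4 of 34 lower in KO (Mvd, Msmo1, Fdps and Fdft1), against 8.17% of all genes, and 1 of 34 higher (Mylip), against 5.89%. DESeq2 and limma-voom each gave 4 of 34 at that unadjusted level. The statements that follow therefore describe levels and directions, none of which passed over all genes.

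Most synthesis enzymes had lower levels in KO, and the 3 LXR targets of the list had higher ones. Of the 18 synthesis enzymes 17 had a fold change below 0, against 51.9% of all tested genes, with a median of -0.19 against -0.01 over all genes. All 3 LXR targets had a fold change above 0, with a median of 0.27. A wider list of other sterol-handling and LXR-linked genes went both ways, with 12 of 20 tested genes lower. Among these, picked after their values were seen, Smpdl3a was at -0.24 and Pltp at -0.14, and Cd36 was at 0.21 and Lpcat3 at 0.07. The 5 SREBP regulators sat between, with 4 below 0 and a median of -0.05. A single control library, flox 2, held the highest level of the 7 libraries for most synthesis enzymes and the lowest for all 3 LXR targets. Without it, 11 of the 18 synthesis enzymes were lower, with a median of -0.06, and the LXR targets had a median of 0.10.

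**Figure D1:**
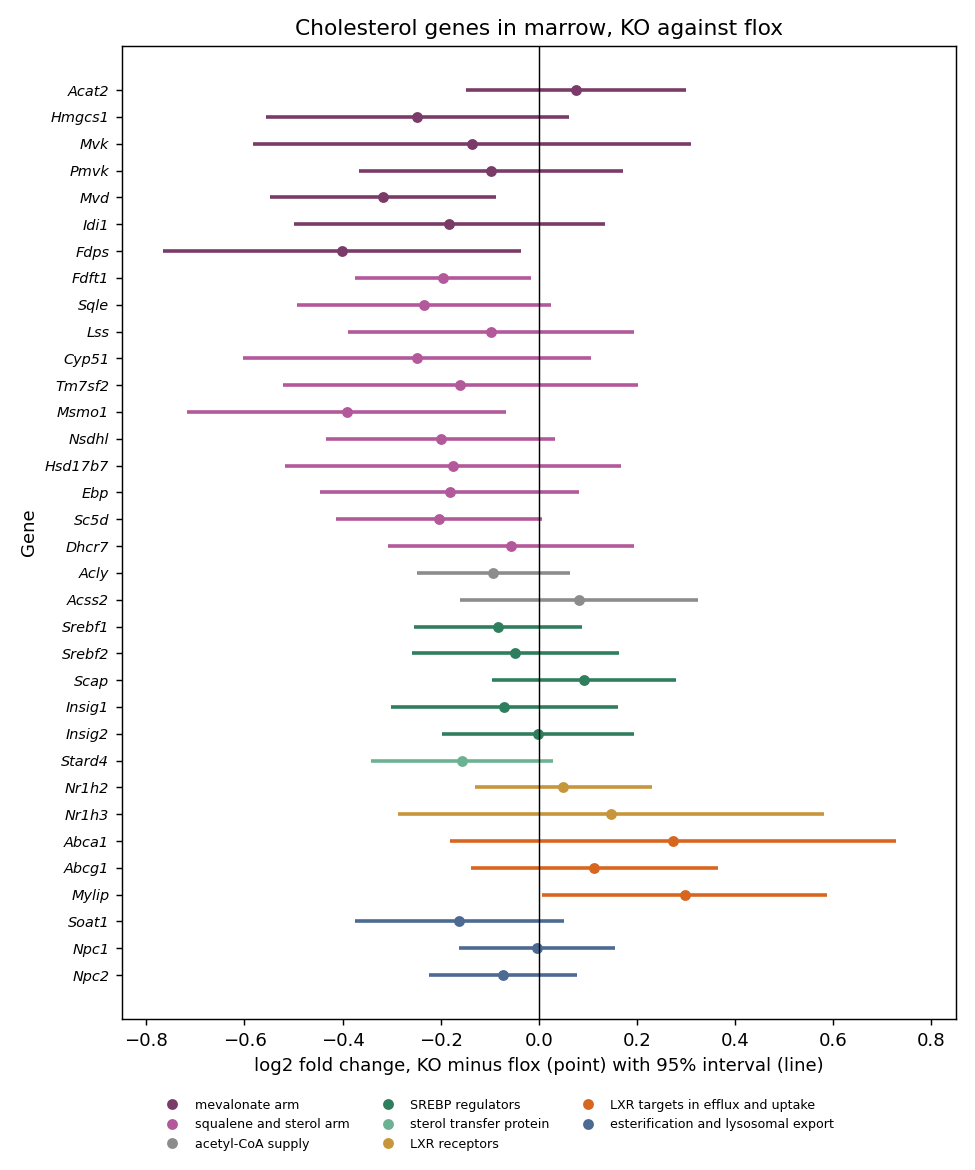
Log2 fold change of each of the 34 genes, KO minus flox, on the horizontal axis (points), with its 95% interval (lines), grouped by role in colour. Of the 18 synthesis enzymes 17 points lie left of 0, the 3 LXR targets lie right of it, and the intervals of Mvd, Fdps, Fdft1, Msmo1 and Mylip leave out 0 before adjustment.

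The first arm of the pathway runs from acetyl-CoA to farnesyl diphosphate. Mvd encodes the decarboxylase that makes isopentenyl diphosphate (chr8:122433601-122443422). It stood at 23.8, 29.2 and 22.5 CPM in flox 1, 2 and 3 and at 19.2, 20.9, 21.4 and 19.2 CPM in KO 1 to 4. Each KO library lay below each flox library, and the fold change was -0.32 (SE 0.10, edgeR adjusted p = 0.244). Without flox 2 it was -0.18. Fdps, which joins isoprene units into farnesyl diphosphate, stood at 21.3, 33.4 and 20.04 CPM in flox and at 18.7, 19.3, 18.9 and 18.6 CPM in KO. The 4 KO values spanned less than 1 CPM and all lay below flox, and flox 2 was 1.62 times the mean of flox 1 and flox 3. The Fdps fold change was -0.40 (SE 0.16, edgeR adjusted p = 0.320), the farthest below 0 in the list, and it was -0.11 without flox 2.

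Hmgcs1 condenses acetoacetyl-CoA with acetyl-CoA and is a classical SREBP2 target. Its level was 36.2, 49.1 and 36.5 CPM in flox and 40.2, 35.6, 29.97 and 30.9 CPM in KO. The groups overlapped, since KO 1 lay above flox 1 and flox 3, and the fold change was -0.25 (SE 0.14). Mvk, the mevalonate kinase, had 6.55, 11.1 and 6.603 CPM in flox and 6.28, 7.23, 8.49 and 7.37 CPM in KO. Flox 2 stood alone above the rest, so the fold change turned from -0.14 with all libraries to 0.17 without it. Idi1, the isopentenyl diphosphate isomerase (-0.18), and Pmvk, the phosphomevalonate kinase (-0.10), overlapped between groups. Acat2, the cytosolic thiolase at the head of the pathway, was the 1 synthesis enzyme with a fold change above 0 (0.08, SE 0.10), with 11.4 to 12.7 CPM in flox and 11.9 to 14.2 CPM in KO. It shares 39.1% of its exonic 50-base words with other genes, so the split of reads between copies is uncertain. The gene with the most matches, counted over all transcripts, was its neighbour and close copy Acat3. Shares above 25% also held for Idi1 (25.3%), Fdps (26.2%) and Fdft1 (26.5%). Their genes with the most matches were a processed pseudogene for Idi1, protein-coding Gm43738 for Fdps and the overlapping Ctsb for Fdft1. Gm43738 had 8 counts in all.

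The second arm turns farnesyl diphosphate into squalene, closes the rings and trims lanosterol to cholesterol, and all 11 of its genes had a fold change below 0, with a median of -0.20. Msmo1, the C4 methyl sterol oxidase, stood at 24.9, 36.3 and 28.4 CPM in flox and at 24.7, 25.6, 21.8 and 18.8 CPM in KO. Only KO 2 lay above the lowest flox library, and the fold change was -0.39 (SE 0.14, edgeR adjusted p = 0.286), or -0.21 without flox 2. Fdft1, squalene synthase, had 28.3, 30.7 and 25.7 CPM in flox and 23.8, 25.4, 24.9 and 24.5 CPM in KO. Its groups did not overlap, although flox 3 and KO 2 lay within 1 CPM of each other, and the fold change was -0.20 (SE 0.08, edgeR adjusted p = 0.322). Its exons overlap 774 bases of Ctsb on the opposite strand, a lysosomal protease gene with 299229 counts in all, and whether strand was used in counting is not stated, so reads of the 2 genes there cannot be told apart. Nsdhl and Sc5d, a C4 decarboxylase and a desaturase of the late pathway, also did not overlap, with 13.7 to 17.1 CPM in flox against 12.1 to 13.5 CPM in KO and 25.7 to 32.4 CPM against 23.3 to 25.0 CPM. In all, 5 of the 18 synthesis enzymes were lower in KO with no overlap between groups (Mvd, Fdps, Fdft1, Nsdhl and Sc5d), against 7.41% of all tested genes. None of the 34 was higher without overlap, against 6.22%.

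In most other enzymes of this arm flox 2 stood apart from all 6 other libraries. Sqle, squalene epoxidase, a rate-limiting oxygen-requiring step, had 20.8, 27.6 and 19.8 CPM in flox and 20.1, 18.5, 19.6 and 19.03 CPM in KO. Cyp51, the lanosterol demethylase, had 17.9, 28.9 and 19.4 CPM in flox and 20.4, 19, 17.0 and 17.9 CPM in KO. In both, flox 1 and flox 3 fell within or within 1 CPM of the KO range, and flox 2 was 1.36 and 1.55 times their mean. The Sqle fold change moved from -0.23 to -0.05 without flox 2, and that of Cyp51 from -0.25 to 0.01. Ebp, the sterol isomerase, showed the same order, at 25.9, 36.7 and 26.8 CPM in flox and 25.8 to 27.4 CPM in KO (-0.18, and 0.01 without flox 2). Hsd17b7, a ketosteroid reductase (-0.17), Lss, lanosterol synthase (-0.10), and Dhcr7, which makes the last reduction to cholesterol (-0.06), also turned above 0 without flox 2. Tm7sf2, a sterol reductase at only 4.30 to 6.20 CPM, had -0.16 and shares 532 exonic bases with Vps51 on its own strand.

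Summed over the 18 enzymes, synthesis transcripts stood at 324, 426 and 323 CPM in flox and at 319, 316, 304 and 293 CPM in KO. The group means were 358 ± 59.4 CPM (SD, n = 3) and 308 ± 12.1 CPM (SD, n = 4), a ratio of 0.860. The groups did not overlap, yet flox 1 and flox 3 lay within 5 CPM of KO 1, and flox 2 lay far above both. Flox 2 was the highest of the 7 libraries for 15 of the 18 enzymes, where it was the highest for 22.0% of all tested genes; the exceptions were Acat2, Pmvk and Tm7sf2. This count was made after the values were seen. The ratio of flox 2 to the mean of flox 1 and flox 3 ran from 1.05 for Acat2 to 1.68 for Mvk.

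**Figure D2:**
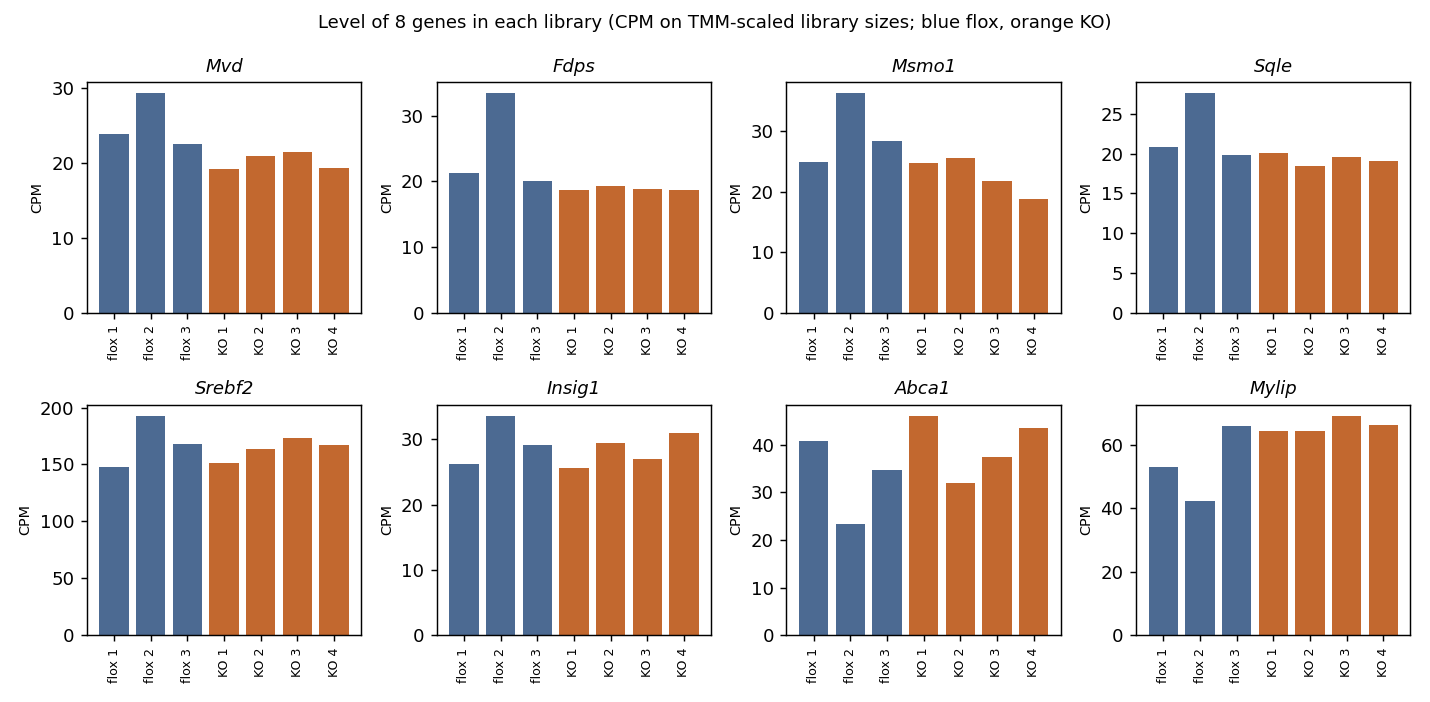
Level in CPM (vertical axis, from 0) of 4 synthesis enzymes, 2 SREBP regulators and 2 LXR targets in each of the 7 libraries (bars; flox blue, KO orange). Flox 2 is the highest bar for the synthesis enzymes and the regulators and the lowest for Abca1 at 23.3 CPM and Mylip at 42.2 CPM.

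Acetyl-CoA for the pathway comes from citrate through Acly and from acetate through Acss2. Acly was the most abundant gene of the list, at 250, 281 and 247 CPM in flox and 248, 237, 245 and 243 CPM in KO (-0.09, SE 0.07). Acss2 had 22.4 to 25.9 CPM in flox and 22.6 to 30.1 CPM in KO (0.08, SE 0.11). Both overlapped between groups.

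The regulators had smaller fold changes than most enzymes, each within 0.1 of 0. Srebf2, whose product is the main activator of the synthesis genes, stood at 148, 192.9 and 168 CPM in flox and at 151, 164, 173 and 167 CPM in KO. The KO range lay inside the flox range, and the fold change was -0.05 (SE 0.09, 95% interval -0.26 to 0.16). Srebf1, which also serves fatty acid synthesis, had 67.9, 77.8 and 70.3 CPM in flox and 65.7, 65.0, 73.9 and 67.4 CPM in KO (-0.08, SE 0.08). Scap, the SREBP escort, had 43.4 to 52.3 CPM in flox and 48.1 to 55.5 CPM in KO (0.09, SE 0.08). Insig1, itself an SREBP target, had 26.2, 33.6 and 29.1 CPM in flox and 25.6, 29.5, 26.9 and 31.0 CPM in KO (-0.07, SE 0.10), and Insig2, its less SREBP-dependent relative, had 12.9 to 14.3 CPM across flox and 13.3 to 14.1 CPM across KO (-0.0015, SE 0.09). Without flox 2, 4 of the 5 regulators had a fold change above 0, with a median of 0.05. Stard4, a sterol carrier and SREBP2 target, had 43.3, 42.6 and 37.6 CPM in flox and 36.5, 40.3, 33.9 and 37.1 CPM in KO (-0.16, SE 0.08). It was one of the genes that flox 2 did not lead, and without that library its fold change was -0.11.

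The 3 LXR targets of the list had fold changes above 0. Mylip, the ligase that marks lipoprotein receptors for degradation (chr13:45389742-45412022), stood at 53.1, 42.2 and 65.9 CPM in flox and at 64.4, 64.3, 69.2 and 66.2 CPM in KO. Flox 3 lay within the KO range while flox 1 and flox 2 lay below it, and the fold change was 0.30 (SE 0.13, edgeR adjusted p = 0.347), or 0.16 without flox 2. Abca1, which loads cholesterol onto apolipoprotein A-I, had 40.8, 23.3 and 34.6 CPM in flox and 46.1, 31.99, 37.5 and 43.5 CPM in KO. Flox 2 stood alone below the other 6 libraries, at 0.617 times the mean of flox 1 and flox 3, and the fold change of 0.27 (SE 0.20, edgeR adjusted p = 0.599) became 0.10 without it. Abcg1, which exports cholesterol to HDL, had 35.7, 29.2 and 33.9 CPM in flox and 42.8, 33.8, 33.0 and 32.9 CPM in KO (0.11, SE 0.11). KO 1 alone was high among the KO libraries, and the lowest Abcg1 fold change in any of the 17 alternative fits was 0.0137.

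The receptors themselves overlapped between groups. Nr1h2 (LXR-beta) had 89.1, 97.1 and 92.4 CPM in flox and 87.8, 96.2, 108 and 93.0 CPM in KO (0.05, SE 0.08). Nr1h3 (LXR-alpha), known from macrophages and liver, had 9.36, 7.44 and 9.44 CPM in flox and 13.5, 8.91, 8.57 and 7.76 CPM in KO (0.15, SE 0.19), and without KO 1 its fold change was -0.05. Flox 2 was again the lowest library for Nr1h3, as it was for all 3 LXR targets; it was the lowest for 19.7% of all tested genes. Soat1, which esterifies cholesterol for storage in droplets, had 99.1, 108 and 92.7 CPM in flox and 99.3, 91.7, 76.4 and 89.9 CPM in KO (-0.16, SE 0.10). Npc1 and Npc2, which pass lipoprotein cholesterol out of lysosomes, overlapped between groups, with fold changes of -0.0033 (SE 0.07) and -0.07 (SE 0.07). Taking receptors, targets, Soat1, Npc1 and Npc2 together, 5 of 8 genes had a fold change above 0, with a median of 0.08.

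Set against each other, the 3 LXR targets minus the 18 synthesis enzymes, as mean log2 CPM relative to each gene's mean over the 7 libraries, gave 0.05, -0.81 and 0.04 in flox 1, 2 and 3. The same difference was 0.30, 0.02, 0.14 and 0.26 in KO 1 to 4. Flox 2 lay far below every other library, and KO 2 lay below flox 1 and flox 3, so the groups overlapped. The SREBP regulators of flox 2 were 0.15 above their mean, where its synthesis enzymes were 0.36 above and its LXR targets 0.46 below (-0.46).

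**Figure D3:**
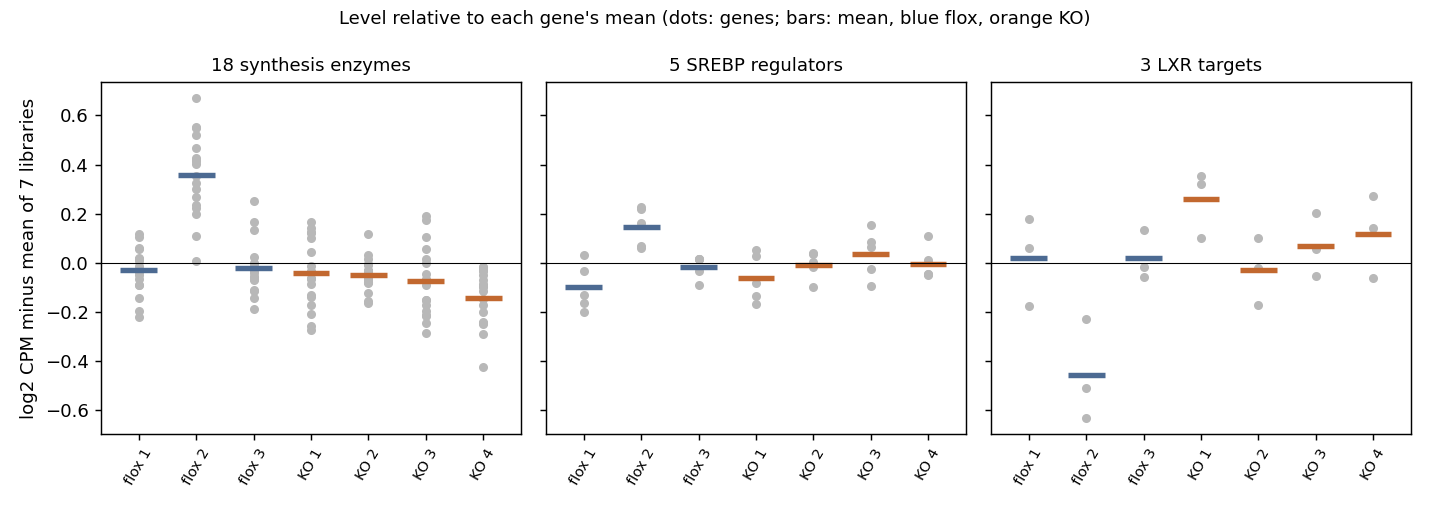
Log2 CPM of each gene minus its mean over the 7 libraries (vertical axis; grey dots are genes, bars the mean in each library, flox blue and KO orange) for synthesis enzymes, SREBP regulators and LXR targets. Flox 2 lies at 0.36 for the enzymes and at -0.46 for the LXR targets, and the other 6 libraries lie between -0.14 and -0.02 for the enzymes.

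**Figure D4:**
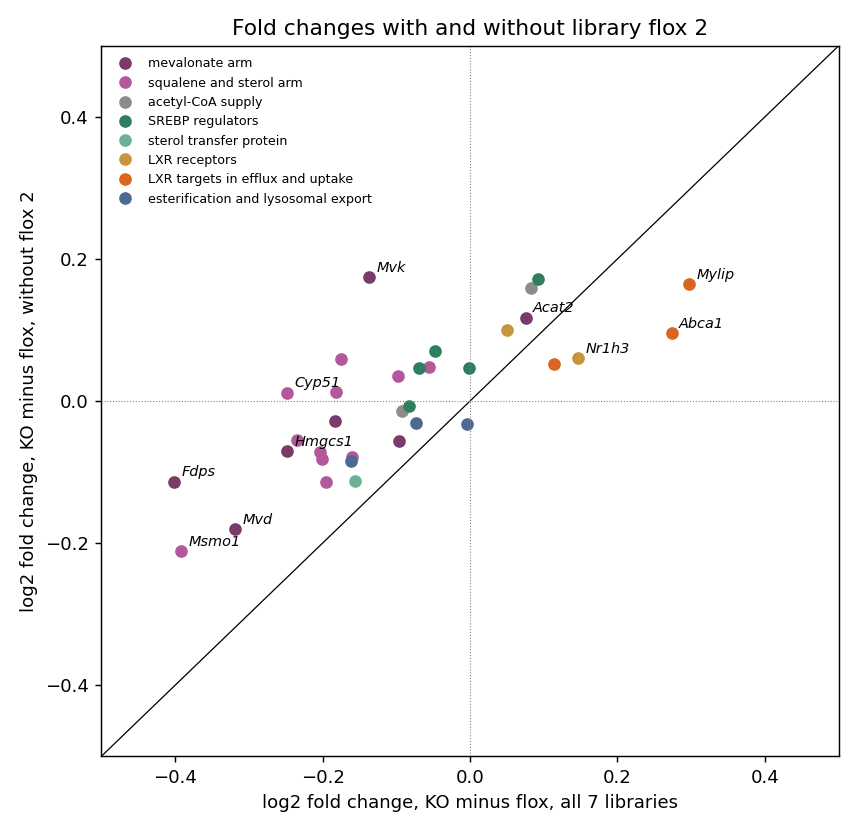
Log2 fold change, KO minus flox, of each gene with all 7 libraries (horizontal axis) and without flox 2 (vertical axis), coloured by role; the diagonal marks equal values. Synthesis enzymes lie above the diagonal and the 3 LXR targets below it, both nearer to 0 on the vertical axis except Mvk, at 0.17, and Acat2.

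Promoter sequences were matched for 28 of the 34 genes (RefSeq, GRCm38.p6; 250 bases before to 50 after each start). A motif common to sterol-regulated promoters, the sterol response element, was searched as TCACCCCAC, with the inverted CCAAT box ATTGG that binds its partner NF-Y, the E-box CACGTG and the GC box GGGCGG, all on both strands, and matches of different motifs were counted separately where they overlapped. The exact letters TCACCCCAC occurred in 1 of 28 genes, Hmgcs1. They occurred in 0.614% of all 27025 genes with a promoter and 0.672% of the 12055 that were also tested. Variant forms of the sterol response element were not searched, so its absence from the other genes is not shown. No promoter was matched for Fdft1, Fdps, Npc1, Abcg1, Stard4 and Sqle. The CCAAT box occurred in 23 of 28 genes and 14 of the 15 synthesis enzymes matched, against 42.0% of tested genes, the E-box in 6 of 28 against 11.1%, and the GC box in 25 of 28 against 63.6%. Genes with several annotated starts were counted as holding a motif if any start did. A match describes letters only. A set of 4 promoters is shown 5′ to 3′ on the gene's strand, with the sterol response element, CCAAT box and E-box in capitals, to set enzymes of the synthesis arm (Hmgcs1, Mvd) and a sensor (Insig1) beside an efflux gene (Abca1).
Hmgcs1 (chr13:119690101-119690400, plus strand): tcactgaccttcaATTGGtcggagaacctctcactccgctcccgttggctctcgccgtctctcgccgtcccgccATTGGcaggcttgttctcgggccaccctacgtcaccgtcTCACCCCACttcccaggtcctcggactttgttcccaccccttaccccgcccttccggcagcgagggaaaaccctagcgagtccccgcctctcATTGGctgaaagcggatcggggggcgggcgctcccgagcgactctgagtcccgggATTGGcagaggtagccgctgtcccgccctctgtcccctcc
Mvd (chr8:122443373-122443672, minus strand): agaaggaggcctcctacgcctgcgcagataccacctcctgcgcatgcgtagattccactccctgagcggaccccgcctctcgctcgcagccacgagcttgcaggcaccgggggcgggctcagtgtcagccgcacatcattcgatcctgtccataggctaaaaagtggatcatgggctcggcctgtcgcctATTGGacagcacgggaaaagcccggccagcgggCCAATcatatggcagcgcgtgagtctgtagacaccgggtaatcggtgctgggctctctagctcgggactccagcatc
Insig1 (chr5:28071162-28071461, plus strand): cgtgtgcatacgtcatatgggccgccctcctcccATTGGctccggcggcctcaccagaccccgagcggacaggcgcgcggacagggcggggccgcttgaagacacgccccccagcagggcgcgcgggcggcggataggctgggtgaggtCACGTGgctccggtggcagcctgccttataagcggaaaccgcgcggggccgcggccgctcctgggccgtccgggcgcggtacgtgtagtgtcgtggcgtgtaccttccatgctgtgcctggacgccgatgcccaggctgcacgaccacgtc
Abca1 (chr4:53159846-53160145, minus strand): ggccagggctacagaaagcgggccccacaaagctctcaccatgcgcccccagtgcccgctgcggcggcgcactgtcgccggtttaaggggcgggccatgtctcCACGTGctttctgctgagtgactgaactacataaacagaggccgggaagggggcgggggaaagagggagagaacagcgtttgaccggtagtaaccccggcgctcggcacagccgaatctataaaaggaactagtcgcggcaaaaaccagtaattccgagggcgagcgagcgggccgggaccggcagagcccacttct
In Hmgcs1 the sterol response element began at position -137 from the start, among 4 CCAAT boxes. Mvd held 2 CCAAT boxes, at -60 and -27. Insig1 held 1 CCAAT box, beginning at position -216 from the start, and 1 E-box, at -101. The Abca1 window held an E-box at -147 and neither of the other 2.

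Levels per kilobase of exon allow genes to be compared. By mean CPM per kilobase in flox, Acly (49.1), Npc2 (39.0), Nr1h2 (27.7) and Srebf2 (23.6) led the list. Among synthesis enzymes Mvd (13.5) and Ebp (12.9) were highest, followed by Pmvk (9.07) and Hmgcs1 (8.83), and Tm7sf2 (1.27) and Lss (0.939) were lowest. LXR-beta stood well above LXR-alpha (27.7 against 3.48), and Mylip (16.6) above Abcg1 (4.51) and Abca1 (3.18). In KO the same quantity was 46.1 for Acly, 10.9 for Mvd, 20.4 for Mylip and 3.84 for Abca1. Lengths count all annotated exons, so genes with many minor transcripts, such as Lss and Acss2, come out low.

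In 4 lists of related lipid genes, 0 tested members passed. For fatty acid synthesis and desaturation, 9 of 15 were lower, with a median of -0.03. The lowest unadjusted p belonged to Aacs, which feeds ketone bodies into the pathway, at 47.6, 57.6 and 50.4 CPM in flox and 44.0, 41.1, 44.3 and 36.0 CPM in KO (-0.33, SE 0.10, edgeR adjusted p = 0.225). Gpam, the first enzyme of triglyceride synthesis, went the other way, at 10.4, 17.0 and 26.0 CPM in flox and 32.3, 26.2, 38.9 and 30.2 CPM in KO (0.84, SE 0.30, adjusted p = 0.289). Elovl6, a fatty acid elongase, had 0.40 and Tmem97, a sterol-linked membrane protein, -0.25. The isoprenoid branch had 6 of 11 lower, with a median of -0.04, and was led by Dhdds, the dolichol-making enzyme (-0.27, SE 0.08, adjusted p = 0.231), followed by Ggps1, which makes geranylgeranyl diphosphate (0.14), Pdss2, a coenzyme Q enzyme (-0.15), and Fnta, a prenyltransferase subunit (-0.08).

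Genes of SREBP processing and sterol-regulated degradation had 6 of 10 lower, with a median of -0.03. Their lowest p values belonged to Syvn1, an endoplasmic reticulum ubiquitin ligase (0.35, SE 0.12, edgeR adjusted p = 0.256), Erlin1, a sterol-linked degradation factor (-0.23), Mbtps1, the first protease that cleaves SREBPs (0.17), and Ubxn4 (-0.10). Other sterol-handling genes had 12 of 20 tested lower, with a median of -0.05, and Ch25h was too low to test. Smpdl3a, an LXR-responsive phosphodiesterase, had -0.24 (SE 0.07, adjusted p = 0.232), Vldlr, a lipoprotein receptor below 2 CPM in all libraries, -0.82 (SE 0.33), Lipa, the lysosomal cholesteryl ester hydrolase, -0.32 (SE 0.15), and Osbpl2, an oxysterol-binding protein relative, -0.17 (SE 0.08). Further genes of that list were named after their values were seen. Pltp, the phospholipid transfer protein, had -0.14 (SE 0.15), Abca7 -0.11 (SE 0.08) and Arl4c -0.02 (SE 0.10). Above 0 were Cd36, the highest of that list at 0.21 (SE 0.18), and Lpcat3, a phospholipid acyltransferase, at 0.07 (SE 0.13). Rxrb had 0.06 (SE 0.07) and Rxra 0.003 (SE 0.08).

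Marrow holds many cell types, and in bulk RNA fewer cells of a type and less RNA per cell cannot be told apart. Flox 2 also had the highest sum of 6 neutrophil primary granule genes (6372 CPM, against 2615 to 4145 in the other libraries) and of 6 secondary granule genes (28707 CPM, against 15978 to 22385), and the lowest sum of 8 erythroid genes (6393 CPM, against 8881 to 12753). All 6 primary granule genes and all 6 secondary granule genes had a fold change below 0, and all 8 erythroid genes one above 0. Other lists were also one-sided or nearly so. B lineage genes were higher in 10 of 10 (median 1.13), with sums of 74.2 to 719 CPM in flox and 765 to 958 CPM in KO, and T and NK cell genes in 6 of 6, with sums of 42.8 to 51.0 and 57.8 to 67.8 CPM, both without overlap. Lower in KO were 6 of 6 megakaryocyte genes (median -0.64), 5 of 6 of stroma and bone (-0.79, sums without overlap), 5 of 5 tested adipocyte genes (-0.60), 6 of 6 of mature neutrophils (-0.18), 9 of 10 of monocytes and macrophages (-0.11) and 4 of 5 endothelial genes (-0.57). None of the genes in these lists passed the test. Proliferation genes were higher in KO in 7 of 7, by little (median 0.05). Their sums overlapped, at 4655 to 6118 CPM in flox and 4909 to 6007 CPM in KO, with flox 2 the lowest. Markers of intestine and liver were present at low levels. A set of 8 intestinal epithelial genes summed to 46.1 to 50.4 CPM in flox and 83.9 to 122 CPM in KO, with 5 of them past the test. A set of 6 hepatocyte genes, of which 2 were tested, summed to 11.4 to 18.2 and 23.7 to 43.4 CPM, with Fgb at 0 in all libraries. Flox 2 was the lowest library in both. White adipose tissue is named in the labels' RNA isolation step, although the source is given as bone marrow; 6 adipocyte genes summed to 5.92 to 26.5 CPM. The part of these markers in the differences above was not tested.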

How the data were processed

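The values used are raw counts per Ensembl gene, which the authors deposited in a single table for the 3 flox and 4 KO libraries. Per the submitters' processing notes, the tools were Trimmomatic 0.36, STAR 2.5.2b and featureCounts (Subread 1.5.2), with genome build GRCm38. Which annotation was used, and how strand and multiply mapped reads were handled, is not stated; this bears on genes that overlap or have close copies.

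Each column was tied to its sample by the code in that sample's description, and the genotype gave the group. GENCODE M21 named 49056 of the 49315 rows. Total counts ran from 43110251 to 51688514 per library. Chi-square per degree of freedom between libraries of a group was 21.4 to 103. The most alike pair of all crossed the groups, flox 3 and KO 2 at 13.8, and no pair was taken as a duplicate.

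In R 4.3.3, edgeR 4.0.16 removed low genes (filterByExpr, minimum count 10), scaled by TMM, and compared KO with flox in 17920 genes (robust glmQLFit, two-sided glmQLFTest, Benjamini-Hochberg). The SE was derived from the test, as the absolute log2 fold change divided by the square root of its F value. Intervals at 95% were built from this SE, and relative log2 CPM used a prior count of 2. The fit was tested on simulated data, where it recovered 38.3% of genes changed 1.5-fold and 53.1% of those changed 2-fold. It recovered 90% at 3-fold and 95.9% at 4-fold, and 8 of its 144 calls were false. Changes below 1.5-fold, as all those of the list are, were not simulated. Alternatives were other scalings and filters, DESeq2 1.42.0, limma 3.58.1, a fit that was not robust, removal of haemoglobin and mitochondrial genes, a replicate block, and omission of single libraries.

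The members and the related and marker lists were chosen with earlier results of these data known. Every member is described. Of each related list, up to 4 genes with the lowest unadjusted p are named. Further genes of the list of other sterol-handling genes were named after their values were seen.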

Additional observations from a re-analysis of the deposited data

Results flagged for a closer look

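Among 37 KO groups of 4 libraries examined, 1 per gene of the list and 3 sums, chance flags about 1 in 20, and 2 were flagged because 1 library lay far from the other 3. Abcg1 stood at 42.8 CPM in KO 1 against 32.9 to 33.8 CPM in KO 2 to 4, a gap of 0.904 of the range of the KO libraries. Ebp stood at 27.4 CPM in KO 2 against 25.8 to 26.0 CPM in the others, a gap of 0.883 of the range, within a total spread of under 2 CPM. Groups of 3, such as flox, are not examined by this rule, so flox 2 is not among these flags.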

How the results depend on the processing

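The number of genes called over all genes was 26 and became 112 with no filter, 16 without the robust fit, 13 with limma-voom, 392 with DESeq2 and 2 to 14 when 1 library was left out. The replicate block gave 4, with numbers taken from the titles. Same-number correlations ran from -0.0221 to 0.0768, and 2 of 3 flox libraries correlated best with their own number. Correlations this small among so few libraries cannot decide whether the numbers pair the samples. Of the 34 genes, 0 were called under each of the 17 alternatives, and the lowest adjusted p in any was 0.117 (Mylip). The count of synthesis enzymes lower in KO ran from 11 (without flox 2) to 17 when 1 library was left out, and the median of the SREBP regulators from -0.13 (without flox 1) to 0.05 (without flox 2). The cause was not tested.

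Of the 34 log2 fold changes, 11 changed sign under some alternative and 23 under none. Leaving out 1 library gave Cyp51 -0.38 to 0.0116, Dhcr7 -0.10 to 0.0480, Ebp -0.28 to 0.0128, Hsd17b7 -0.28 to 0.0589, Insig1 -0.16 to 0.0470, Insig2 -0.0463 to 0.0466, Lss -0.15 to 0.0348, Mvk -0.27 to 0.175, Npc1 -0.0316 to 0.0526, Nr1h3 -0.0549 to 0.24 and Srebf2 -0.14 to 0.0702. With the replicate block Dhcr7 was 0.0166, Insig2 0.0141 and Npc1 0.0147. Insig2 and Npc1, both near 0, were 0.0131 and 0.0118 with RLE, 0.0104 and 0.00777 with upper-quartile scaling, 0.0216 and 0.0196 with library size alone, 0.00606 and 0.00508 with no filter, 0.0149 and 0.0134 with a minimum count of 50, 0.00787 and 0.00692 without haemoglobin and mitochondrial genes, and 0.0131 and 0.0118 with DESeq2.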
